A study of Mus musculus with 61 samples.

Results

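The 200 genes described here were low in wild-type (WT) oocytes, zygotes and 2-cell embryos and high in WT blastocysts. They were chosen by their measured levels. Of 18396 genes, 4175 had a mean of at least 50 normalized counts in WT blastocysts, and these were ranked by the log2 ratio of that mean plus 1 to the highest of the germinal vesicle (GV) oocyte, zygote and 2-cell WT means plus 1. The 200 top-ranked genes are called the blastocyst-gained genes. No stage between the 2-cell embryo and the blastocyst was sequenced, so the gain can be placed only somewhere between them. A normalized count is the number of reads assigned to a gene, divided by a size factor that puts libraries of different depth on one scale. Gene length is not corrected for, so tests compared levels between libraries, and rankings or sums over genes are description only.

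The series profiled RNA from mouse material that carried or lacked ZFP708, a maternally supplied KRAB zinc-finger protein that recruits the TRIM28 repressor complex. GV oocytes (7 WT, 7 knockout), zygotes (7 WT, 7 KO) and 2-cell embryos (7 WT, 8 KO) were sequenced singly, and blastocysts (3 WT, 3 KO) as pools of 10 embryos. KO oocytes came from homozygous mutant females, and KO zygotes, 2-cell embryos and blastocysts from such females mated to WT males, so the embryos lacked the maternal supply and inherited a paternal WT allele. KO mouse embryonic stem cells (mESCs; 3 WT, 3 KO, in LIF and serum by the labels, while the methods describe derivation on feeders in 2i medium and a later move to gelatin) lacked the maternal and the zygotic product. The mutant allele is a small frame-shifting deletion. E14 mESCs that overexpressed (OE) FLAG-ZFP708 from a piggyBac transposon (3 libraries, puromycin-selected and sorted for GFP) were set beside E14 controls labelled as wild type (3 libraries), so transposition, selection and sorting cannot be told apart from ZFP708 itself. The number of mothers, litters or separate cultures behind the libraries was not given in the sources used here, so the p-values measure the spread between these samples, which may in part be technical.

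A blastocyst is a fluid-filled ball of cells. Its outer layer, the trophectoderm, is a transporting epithelium: cells are joined by tight junctions, desmosomes and gap junctions, are reinforced by keratin filaments, and pump ions so that water follows into the cavity. Inside lies the inner cell mass, which sorts into the pluripotent epiblast and the primitive endoderm, an endocytic layer that lines the cavity. mESCs are derived from the inner cell mass and carry the epiblast programme without the epithelium.

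Library depth differed with stage. Reads assigned to genes numbered between 12469548 and 17263228 in blastocysts, 13851179 and 19596785 in mESCs and E14 cells, and 2486334 and 4844699 in oocytes, zygotes and 2-cell embryos. One read was worth between 0.0441 and 0.0728 normalized counts in the deep libraries and between 0.208 and 0.397 in the single-cell and single-embryo libraries. The kit used for the blastocysts was not given in the sources used here. Stage, depth and pooling changed together and cannot be told apart. Zfp708 RNA was between 530.2 and 722.3 in the OE libraries against 6.35 to 7.03 in the E14 controls. It was at 7.81 to 9.004 in KO against 6.95 to 7.14 in WT mESCs, at 4.55 to 7.89 against 3.43 to 5.90 in blastocysts and at 0 to 469 against 6.39 to 32.4 in 2-cell embryos, and because the allele is a small deletion within the transcript this level does not check the KO labels. Among the KO 2-cell embryos, libraries 2 and 7 stood apart in the blastocyst-gained genes and in markers of ovarian somatic cells. The library labelled KO 2-cell 7 also went against its label, with Zfp352 at 0, Obox6 at 0.29 and Oosp1 at 12.2. Values at the 2-cell stage are given with and without this pair.

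Upstream sequence was available for 152 of the 200 genes (RefSeq promoter windows, GRCm38.p6), and 2 sets are printed. The first set holds the 250 bases upstream of the start of the highest-ranked genes from the lists of trophectoderm, primitive endoderm and pluripotency markers whose window held a searched motif. Each is written 5′ to 3′ on the strand of its gene, and capitals mark motif matches on either strand. Krt18 (chr15:102027966-102028215, plus strand) and Krt8 (chr15:102004343-102004592, minus strand) encode the keratin pair of simple epithelia. Serpinh1 (chr7:99353240-99353489, minus) encodes a collagen chaperone and Lrp2 (chr2:69586030-69586279, minus) the endocytic receptor megalin. Spp1 (chr5:104434861-104435110, plus) encodes the secreted integrin ligand osteopontin and Tdgf1 (chr9:110946159-110946408, minus) the NODAL co-receptor CRIPTO.
Krt18: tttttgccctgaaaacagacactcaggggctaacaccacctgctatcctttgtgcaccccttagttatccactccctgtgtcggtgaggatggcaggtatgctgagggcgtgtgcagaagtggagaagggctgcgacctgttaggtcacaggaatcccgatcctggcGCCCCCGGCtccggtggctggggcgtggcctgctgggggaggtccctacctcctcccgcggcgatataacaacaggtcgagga
Krt8: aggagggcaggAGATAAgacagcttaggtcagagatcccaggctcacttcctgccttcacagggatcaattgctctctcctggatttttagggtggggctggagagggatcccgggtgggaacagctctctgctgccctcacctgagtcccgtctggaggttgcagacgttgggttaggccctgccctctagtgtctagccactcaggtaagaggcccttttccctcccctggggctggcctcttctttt
Serpinh1: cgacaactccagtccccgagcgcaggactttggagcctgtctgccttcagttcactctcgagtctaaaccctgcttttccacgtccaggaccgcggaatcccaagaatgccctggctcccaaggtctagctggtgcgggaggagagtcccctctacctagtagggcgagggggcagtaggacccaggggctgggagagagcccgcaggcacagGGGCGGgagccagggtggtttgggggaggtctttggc
Lrp2: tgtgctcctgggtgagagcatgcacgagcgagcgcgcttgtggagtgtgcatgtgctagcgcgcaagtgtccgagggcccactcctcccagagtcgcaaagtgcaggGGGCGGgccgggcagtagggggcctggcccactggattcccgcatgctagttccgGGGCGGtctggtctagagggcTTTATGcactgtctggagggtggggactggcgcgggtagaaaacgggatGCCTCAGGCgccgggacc
Spp1: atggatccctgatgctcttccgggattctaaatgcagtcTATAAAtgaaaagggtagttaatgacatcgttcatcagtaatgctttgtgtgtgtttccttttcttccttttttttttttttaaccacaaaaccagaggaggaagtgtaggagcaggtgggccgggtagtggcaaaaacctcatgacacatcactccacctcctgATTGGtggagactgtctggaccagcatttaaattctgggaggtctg
Tdgf1: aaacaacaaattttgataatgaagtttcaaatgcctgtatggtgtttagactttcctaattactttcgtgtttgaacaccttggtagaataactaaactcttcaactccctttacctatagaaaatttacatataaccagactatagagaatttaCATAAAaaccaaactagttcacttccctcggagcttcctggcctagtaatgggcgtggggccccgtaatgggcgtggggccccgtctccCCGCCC

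These windows differed in what they held. Capitals mark an AP-2 site in Krt18, a GATA site in Krt8, a GC box in Serpinh1, GC boxes, a CDX site and an AP-2 site in Lrp2, a TATA box and a CCAAT box (on the other strand) in Spp1, and a CDX site and a GC box (both on the other strand) in Tdgf1. The Spp1 window had 43.6% G and C and the Lrp2 window 66.4%. Over all 152 windows the blastocyst-gained genes were poorer in CpG than other genes of the blastocyst: 40.8% were CpG-rich (observed-to-expected CpG of at least 0.6 and at least 50% G and C), against 74% of the 3364 windows of all genes with a WT blastocyst mean of at least 50 and 50.7% of all 14139 windows. The median observed-to-expected CpG was 0.57, 0.80 and 0.64 in the same order.

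Of 9 motifs searched on both strands in these 250 bases, the AP-1 site TGANTCA had the highest share among the blastocyst-gained genes relative to other genes. It was present in 18 of 152 windows (11.8%), against 3.92% of the genes with a blastocyst mean of at least 50 and 5.22% of all windows. The TEAD site GGAATG was present in 15.1%, 9.93% and 11.2%, and the TATA box TATAAA in 9.21%, 5.74% and 8.49%. The GATA site AGATAA was present in 7.89%, 5.29% and 7.14%. The E-box CACGTG (9.87%, 9.66% and 7.67%) and the CDX site TTTATG (5.92%, 5.23% and 7.21%) were within 1 percentage point of the genes with a blastocyst mean of at least 50. The GC box GGGCGG (56.6%, 63.1% and 51%), the CCAAT box (33.6%, 38% and 35.9%) and the AP-2 site GCCNNNGGC (17.8%, 21.2% and 18.6%) were rarer than among genes with a blastocyst mean of at least 50. None of these shares was tested, and a match is a run of letters and not a bound site.

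The second set shows the AP-1 match of 8 of the 18 genes, in windows of at most 30 bases with the match in capitals. It was chosen after the shares were known, to show the variation around the match, which lay between 12 and 234 bases from the start site in these 8 genes. Psap encodes the precursor of the lysosomal saposins, Plet1 a surface protein of trophoblast progenitors, Gja1 the gap junction protein connexin 43, and Cldn4 a tight junction claudin. S100a11 encodes a calcium-binding protein of the cell cortex, Zyx the focal adhesion protein zyxin, Ezr the membrane-actin linker ezrin, and Fbp2 a fructose bisphosphatase.
Plet1: tggaggctgggTGATTCAtccaggtaatgt
Psap: ctgcgcgacgcTGAGTCAagctgcgccca
S100a11: cagagacctgtTGAGTCAcagggactacaa
Zyx: agtgcggacagTGAGTCAgttctccagcac
Ezr: ccgatcgggcgTGACTCAtcttgggaccgc
Cldn4: tctaggctggTGACTCAgtgtctgtgtcc
Fbp2: gtccggctatcTGAGTCAcgtggggtgggg
Gja1: ctccttccagtTGAGTCAgtggcttgaaac

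The positions of these 8 windows on GRCm38.p6 were chr9:50494370-50494399 (plus, Plet1), chr10:60277599-60277627 (plus, Psap), chr3:93520349-93520378 (plus, S100a11), chr6:42349696-42349725 (plus, Zyx), chr17:6782794-6782823 (minus, Ezr), chr5:134947156-134947184 (minus, Cldn4), chr13:62858429-62858458 (minus, Fbp2) and chr10:56377270-56377299 (plus, Gja1).

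The values that chose the genes are given as description, without a test. The rule's log2 ratio ran from 9.90 for Fabp3, the heart-type fatty acid binding protein, to 4.06 at rank 200, with a median of 5.20. On the scale of levels plus 1 these are folds of 954 and 16.7. Just inside the limit were Slc5a11 (4.07), Tes (4.06) and Gja1 (4.06), and just outside it were Atxn10 (4.05), Gca (4.01) and Nid1 (3.99), so the limit falls in a continuous run of genes. WT blastocyst means ran from 50.3 to 5542 with a median of 162, and the 12 highest, from 1004 to 5542, were Actb, Calcoco2, Psap, Lrpap1, Gsto1, Krt18, Krt8, Akr1b8, Fabp3, Elf3, Atp5g3 and Cndp2.

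The genes were not all silent at the earlier stages that were sequenced. In the WT oocytes, zygotes and 2-cell embryos, 55 had a mean under 1 at every stage and 39 had a mean of at least 10 at some stage. The highest earlier mean was at the 2-cell stage for 114 genes, in GV oocytes for 57 and in zygotes for 29. Atp12a, a proton-potassium pump, had no read in any of the 21 earlier WT libraries. A count of 0 allows up to 3 reads, which here are between 0.70 and 1.19 normalized counts per library. The blastocyst mean of 50.8 for Atp12a was therefore at least 42.6-fold higher, against the shallowest library. Every WT blastocyst library exceeded every earlier WT library for all genes but BC051665, which was at 120, 3.38 and 269 in the 3 WT blastocyst libraries. The summed level of the 200 genes was between 826 and 1046 in WT oocytes, 603 and 684 in WT zygotes, 1265 and 1797 in WT 2-cell embryos, and 62961 and 72395 in WT blastocysts, where it made up 6.97% to 7.96% of all counts.

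**Figure D1:**
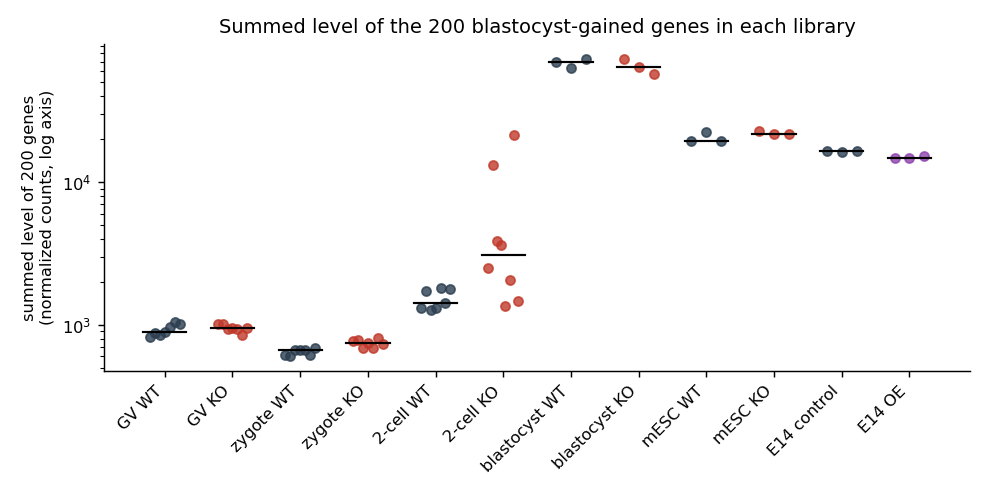
Summed level of the 200 blastocyst-gained genes in each library (normalized counts, log axis), by group, with 1 point per library. Blastocysts sit between 56847 and 73162, mESCs and E14 cells between 14805 and 22703, and WT oocytes, zygotes and 2-cell embryos at 1797 or less. KO 2-cell libraries 2 and 7 are at 13202 and 21510.

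Cytoskeletal, junctional, endocytic and metabolic genes made up most of the list. Roles were assigned by hand to 176 of the 200 genes from their known functions, after the genes were known. The largest groups were amino acid, sugar, redox and other metabolism (31 genes), the keratin, actin and membrane-linked cytoskeleton (29), cell junctions and adhesion (22), and lysosome, endocytosis and vesicle traffic (20). Lipid handling and fatty acid oxidation had 17 genes, signalling 17, channels, pumps and solute carriers 15, transcription factors and chromatin 14, and proteases, their inhibitors and lectins 11. The cytoskeletal genes held 22.7% of the summed WT blastocyst level and the lysosomal and endocytic genes 22.5%. Few genes weighed heavily in these sums. Actb had a mean of 5542 in a cytoskeletal sum of 15514, and Calcoco2 and Psap had 4971 and 3953 in a lysosomal and endocytic sum of 15375.

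In the cytoskeleton, Krt18 was at 1308, 1376 and 1394 in the WT blastocyst libraries and at no more than 6.07 in any WT oocyte, zygote or 2-cell embryo. Its partner Krt8 was at 1265, 1028 and 1384. Actb, cytoplasmic β-actin, was already at a mean of 314 in 2-cell embryos and reached 5542 ± 1776 (SD, n = 3). Around actin stood the tropomyosins Tpm1 and Tpm4, the actin-severing proteins Gsn (gelsolin) and Capg, and the membrane linkers Ezr and Msn (moesin), with means from 142 to 789. Reads of Actb may be shared with its processed pseudogenes.

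Junction genes included components of tight junctions, gap junctions and desmosomes. The claudins Cldn7 and Cldn4, of tight junctions, had means of 731 ± 48.9 and 574 ± 17.6. The connexins Gja1 and Gjb5, which form gap junction channels, had means of 617 and 149. Dsg2, the desmosomal cadherin desmoglein 2, was at 123.

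Transport genes included the water and glycerol channel Aqp3 (294 ± 72.4), the glucose transporter Slc2a3 (557 ± 34.4), the creatine carrier Slc6a8 (221) and the neutral amino acid carriers Slc38a4 (260) and Slc6a14 (120). Endocytic and lysosomal genes included Calcoco2, the autophagy receptor NDP52, at 4971 ± 359, Psap at 3953 ± 315, Ctsd, the protease cathepsin D, at 959, Hexa, a subunit of β-hexosaminidase, at 306, and Lrp2 at 412 with its chaperone Lrpap1 at 1672. Lipid genes included the mitochondrial β-oxidation enzymes Acadl (704), Hadh (464), Acaa2 (176) and Acadvl (166).

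Among transcription factors, the list held regulators of all 3 lineages. Cdx2, which specifies trophectoderm, was at 237, 209 and 185 in the WT blastocyst libraries, and Eomes, a T-box factor of trophoblast, at 301, 169 and 301. Gata6, which specifies primitive endoderm, was at 145, 176 and 126, and the epiblast factor Nanog at 162, 201.4 and 161. Elf3, an epithelial ETS factor, had the highest mean of this group (1050). Against marker lists fixed with results of the series known, 10 of 27 trophectoderm markers, 4 of 25 primitive endoderm markers, 5 of 31 pluripotency markers and 8 of 35 epithelial junction genes were among the 200.

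**Figure D2:**
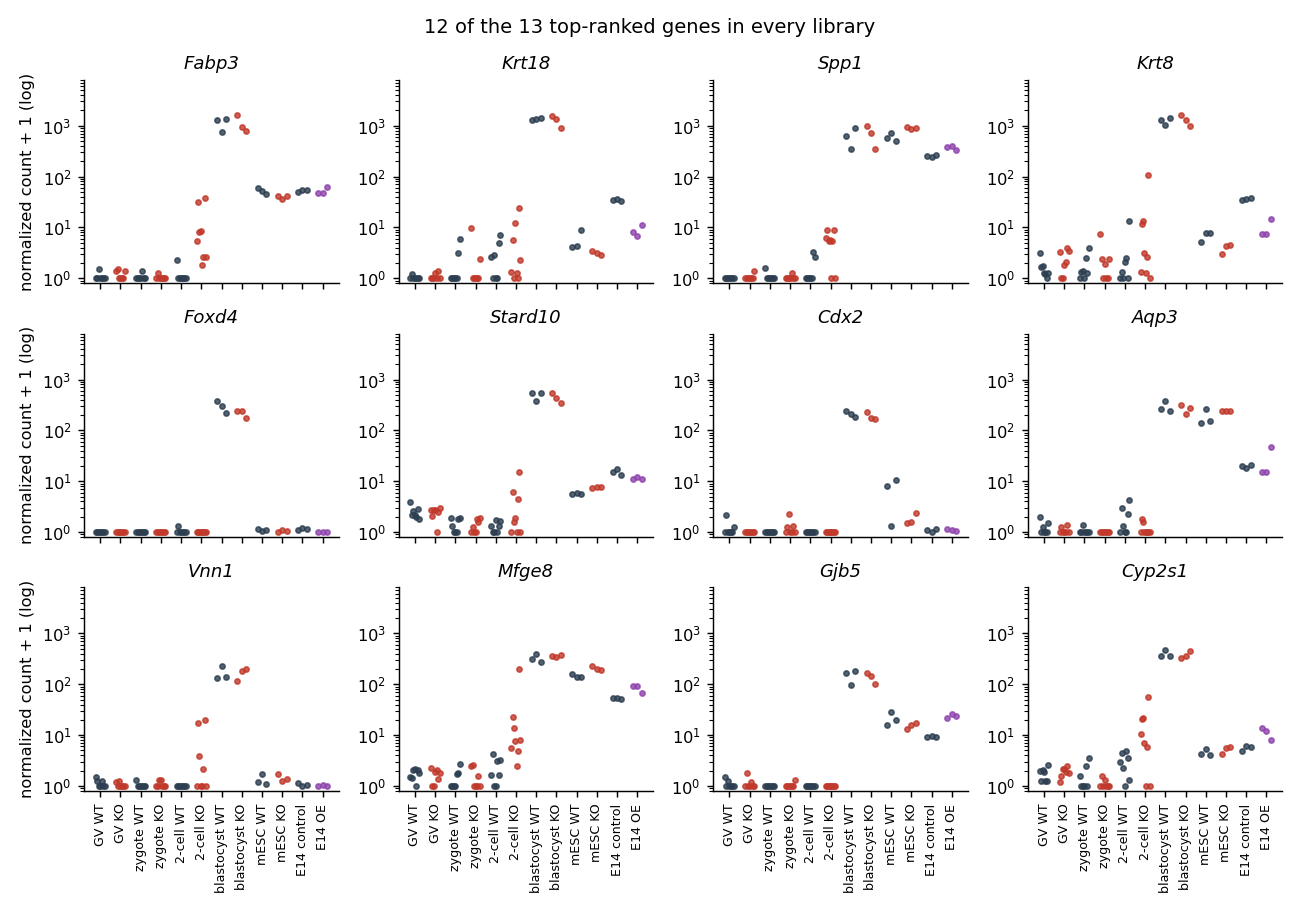
Of the 13 top-ranked genes, 12 in every library, as normalized count plus 1 on a log axis, with 1 panel per gene and 1 point per library. Every blastocyst library lies above the WT oocytes, zygotes and 2-cell embryos, while the mESC and E14 libraries range from the blastocyst level for Spp1 to near 0 for Foxd4.

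The genes varied between blastocyst pools more than other genes of the same stage. The median coefficient of variation was 16.0% in WT and 17.7% in KO, against 10.3% and 8.46% over all genes with a WT mean of at least 50. The variation was shared between genes: WT library 2 was the lowest for 104 of the 200 genes (52%, against 38.2% of the 4175 genes), and KO library 3 was the lowest for 136 (68%, against 40.3%). KO library 1 was the highest for 132 (66%, against 41.1%). Of the 20 genes that varied most in WT, 17 were lowest in WT library 2 and 16 lowest in KO library 3. BC051665 was at 154, 24.2 and 5.29 in KO libraries 1, 2 and 3. Tspan8, a tetraspanin, was at 807, 306 and 952 in WT and 955, 517 and 279 in KO, and Spp1 at 638, 340 and 892 in WT and 963, 719 and 342 in KO. Gata6 and Nanog did not follow this order and were highest in WT library 2 and in KO library 3. The immune and blood markers that stood out in KO library 3 are given with the KO comparison, and their part in this order was not tested.

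**Figure D3:**
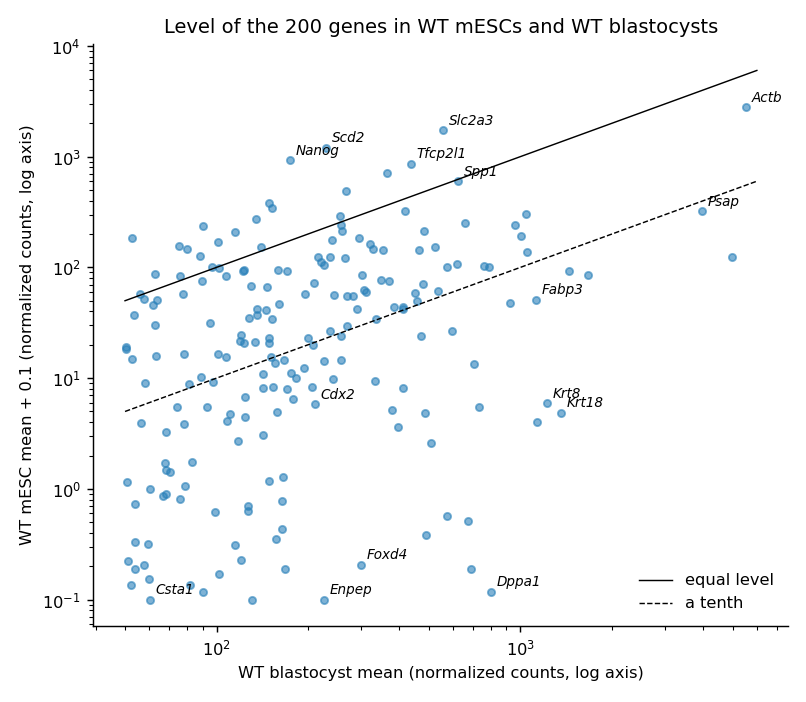
Mean level of each of the 200 genes in WT blastocysts (x axis, normalized counts, log) and in WT mESCs (y axis, mean plus 0.1, log), with the line of equal level. The 22 genes above the line include Nanog, Tfcp2l1 and Slc2a3, and 34 genes have an mESC mean under 1.

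The gain was measured again in KO libraries, which the choice of genes had not used. In KO material 198 of the 200 genes were higher in blastocysts than in each of the 3 earlier stages (limma, Benjamini-Hochberg adjusted p under 0.05 against each), where 17.1% of the 15361 genes tested were. The median difference on the log2(value + 1) scale was 6.03 against GV oocytes, 6.35 against zygotes and 4.94 against 2-cell embryos, and the medians over all genes tested were 0.01, 0.07 and −0.18. Many of the genes entered the test through the blastocysts alone, which sets their direction: 98 reached 1 normalized count in at least 3 KO oocytes, 78 in KO zygotes and 167 in KO 2-cell embryos, and of these 98, 78 and 165 were higher in blastocysts. KO blastocysts were pooled and the other embryos sequenced singly, so stage and pooling cannot be told apart in this comparison.

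Krt18 was at 1569, 1379 and 889 in KO blastocysts, with a median of 0 in KO oocytes and 0.80 in KO 2-cell embryos. Its difference was 10.16 ± 0.80 (SE) against oocytes and 8.70 ± 0.78 against 2-cell embryos (adjusted p = 2.0e-11 and 7.5e-10). Fabp3 was at 1607, 962 and 783 in KO blastocysts and differed by 9.83 ± 0.64 from KO oocytes and by 7.26 ± 0.63 from KO 2-cell embryos. Psap was higher by 7.55 ± 0.44 and 5.50 ± 0.43, and Nanog by 7.29 ± 0.40 and 6.32 ± 0.39. Foxd4, a forkhead factor, had no read in any of the 22 earlier KO libraries, where 3 reads were worth between 0.62 and 1.19. The KO blastocyst mean of 215 for Foxd4 was at least 181-fold higher than the shallowest library's limit. The groups did not overlap for these genes. Krt18, Fabp3, Nanog and Foxd4 did not reach 1 normalized count in at least 3 KO oocytes, so their direction against oocytes was given in advance. Psap did reach it. Foxd4 had no read in KO zygotes and 2-cell embryos either, so its direction against these stages was also given in advance.

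The 2 genes that missed the threshold did so against the 2-cell stage. Dap, which encodes a death-associated protein, differed by 1.74 ± 0.78 (adjusted p = 0.063) and Gja1 by 1.87 ± 0.85 (adjusted p = 0.066). In KO 2-cell embryos Dap was at 196 in library 2, 302 in the library labelled 7 and 60.3 or less in the others, and Gja1 at 1373, 1233 and 207.6 or less. Without this pair all 200 genes were called. The count was 189 with edgeR and 166 with DESeq2 on the reads recovered from the normalized counts.

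In mESCs the blastocyst-gained genes ranged from absent to higher than in blastocysts, with most of them lower and a small group higher. The WT mESC means ran from 0 to 2799 with a median of 24.2. Of the 200 genes, 34 (17%) had a mean under 1, against 1.72% of the 4175 genes with a WT blastocyst mean of at least 50, and 74 (37%, against 5.72%) had a mean under 10. In 90 genes (45%, against 6.66%) the mESC mean was more than 10-fold below the blastocyst mean. Another 22 (11%, against 31.8%) had a higher mean in mESCs than in blastocysts. The median log2 ratio of mESC to blastocyst was −3.07, and −0.61 over the 4175 genes. In E14 controls, 32 genes had a mean under 1 and 22 exceeded the blastocyst mean. The rule used the blastocyst side of these ratios, so they are a description, and inner cell mass and trophectoderm were not separated in the blastocyst pools, where fewer cells of a type and less RNA per cell cannot be told apart.

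The 34 genes with an mESC mean under 1 included 7 metabolic genes, 4 channels and carriers, 4 signalling genes, 3 junction genes, 0 cytoskeletal genes and 9 without a role. Krt18 was at 3.16, 3.37 and 7.74 in WT mESCs, and Krt8 at 4.06, 6.85 and 6.64. Tspan8, Trpv5, a calcium channel, and Clic3, a chloride channel family protein, had means under 0.11. Csta1, of the cystatin family of protease inhibitors, and Enpep, a membrane aminopeptidase, had no read in the 3 WT mESC libraries, where 3 reads were worth between 0.158 and 0.165. The blastocyst means of 60.6 and 226 were at least 368-fold and at least 1373-fold higher. Dppa1 had 1 read in the 3 WT mESC libraries together, against 900, 556 and 948 in the WT blastocysts. Fbp2 was at 0.37, 0.27 and 0.60 in WT mESCs and at 671, 705 and 644 in WT blastocysts. Cdx2 was at 7.22, 0.32 and 9.61 in WT mESCs, so WT mESC library 2 was below both other libraries.

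Genes of the epiblast programme made up part of the high group. Nanog was at 888, 1045 and 854 in WT mESCs, and the naive pluripotency factor Tfcp2l1 at 844, 929 and 812 against 437 ± 22.8 in blastocysts. Slc2a3, whose gene neighbours Nanog, was at 1602, 1932 and 1685. Scd2, a fatty acid desaturase, had an mESC mean of 1200 against 230 in blastocysts. The 5 highest mESC means belonged to Actb (2799), Slc2a3, Scd2, Nanog and Tfcp2l1.

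The groups with the lowest mESC levels relative to blastocysts were proteases, inhibitors and lectins (median log2 ratio −4.45 over 11 genes), channels and carriers (−4.28 over 15) and lipid handling (−3.90 over 17). The junction genes had the highest ratio (−2.01 over 22), and 2 of them, Itga5 (integrin α5) and Gipc1, were above their blastocyst means.

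The test of this difference used KO libraries on both sides. KO blastocysts exceeded KO mESCs for 165 of the 200 genes (limma, adjusted p under 0.05), and so did 38.2% of the 12506 genes tested. The reverse held for 20 genes (10% of the 200), against 46.3% of all genes tested. Of the 200, 35 did not reach 1 normalized count in all 3 KO mESC libraries and entered the test through the blastocysts alone, so their direction was given in advance. Of the other 165 genes, 130 were higher and 20 lower in KO blastocysts. KO blastocysts lacked the maternal product alone and KO mESCs the maternal and zygotic products, and the blastocysts were pooled embryos and the mESCs cultured cells, so these cannot be told apart from the change of cell type.

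Higher in KO blastocysts were Fbp2, at 641, 716 and 689 against 1.52, 1.02 and 1.15 (8.27 ± 0.11, adjusted p = 1.7e-08), Acadl, at 701, 670 and 636 against 14.3, 15.8 and 16.0 (5.36 ± 0.07, adjusted p = 1.8e-08), and Calcoco2, at 4585, 5032 and 5045 against 252, 219 and 215 (4.42 ± 0.08). Krt8 and Krt18 differed by 8.35 ± 0.20 and 8.64 ± 0.20. None of these groups overlapped. Gata6 differed by 6.42 ± 0.15, but it entered the test through the blastocysts alone, so its direction was given in advance. Lower in KO blastocysts were Nanog, at 189, 185 and 205 against 1162, 1096 and 1072 (−2.52 ± 0.06, adjusted p = 6.8e-08), Nynrin (−2.04 ± 0.09), Lasp1, an actin-binding adaptor (−1.81 ± 0.09), Tfcp2l1 (−1.58 ± 0.08) and Eef1g, a translation elongation factor subunit (−0.99 ± 0.06). Reads of Eef1g may be shared with pseudogenes.

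By list, all 10 trophectoderm markers were higher in KO blastocysts than in KO mESCs, as were 22 of the 25 tested genes of that whole list. Of the 5 pluripotency markers, 1 was higher and 3 lower, against 11 and 17 of 31 in the whole list. Of the 4 primitive endoderm markers 3 were higher. Some of these markers did not reach 1 normalized count in all 3 KO mESC libraries. Among them were the trophectoderm markers Tspan8, Dppa1 and Cdx2 (KO mESC mean 0.82) and the primitive endoderm markers Gata6 and Pdgfra. Their direction was given in advance, and such genes were not taken out of these list counts. The 15 uncalled genes included Spp1, Aqp3, Dsg2, Itga5 and Serpinh1.

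Loss of maternal ZFP708 left the levels of the blastocyst-gained genes in blastocysts without a detectable change. Of the 200 genes, 0 were called higher and 0 lower in KO than in WT blastocysts (limma, adjusted p under 0.05), against 0.00885% and 0% of the 11295 genes tested. edgeR and DESeq2 on the recovered reads also called 0. With limma 6 of the 200 had an unadjusted p under 0.05, as had 173 of the 11295 genes tested. The median difference was −0.09 (log2(value + 1)) against −0.01 over all genes, and 54 of the 200 differences were positive. The WT libraries of this comparison also chose the genes, so the direction of the median is not independent of the choice.

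The 6 genes at an unadjusted p under 0.05 were all lower in KO on average. AU021092 was at 51.9, 55.9 and 54.0 in WT and 43.3, 40.2 and 35.4 in KO (−0.44 ± 0.11, adjusted p = 1). Ly6a, a GPI-anchored surface protein, was at 176, 192 and 136 in WT and 105, 124 and 122 in KO (−0.50 ± 0.14). Cryab, the small heat shock protein αB-crystallin, was at 79.1, 74.0 and 74.5 in WT and 64.5, 56.8 and 45.3 in KO (−0.46 ± 0.14). Krt7, Lasp1 and Akr1b8 were the other 3, and the genotypes did not overlap in any of the 6. In all, 9 of the 200 genes (4.5%) had every KO library below every WT library and 0 had the reverse, against 3.09% and 2.86% of all genes tested.

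The genotypes overlapped for Cdx2, Gata6 and Nanog, for Krt8 and Krt18, and for Calcoco2. Cdx2 was at 237, 209 and 185 in WT and 233, 175 and 166 in KO (−0.14 ± 0.15). Krt18 differed by −0.13 ± 0.19, Krt8 by 0.06 ± 0.19, Gata6 by −0.07 ± 0.16 and Nanog by 0.15 ± 0.11. Calcoco2 differed by −0.02 ± 0.10. KO library 3 was below all 3 WT libraries for Krt18 (889) and also held markers of blood cells: the immune and blood list summed to 252 there, against 12.4 and 52.8 in the other KO pools and 8.74 to 17.8 in WT, with Cd74 at 74.2 and Lyz2 at 75.2. The part of these cells in the KO values was not tested.

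**Figure D4:**
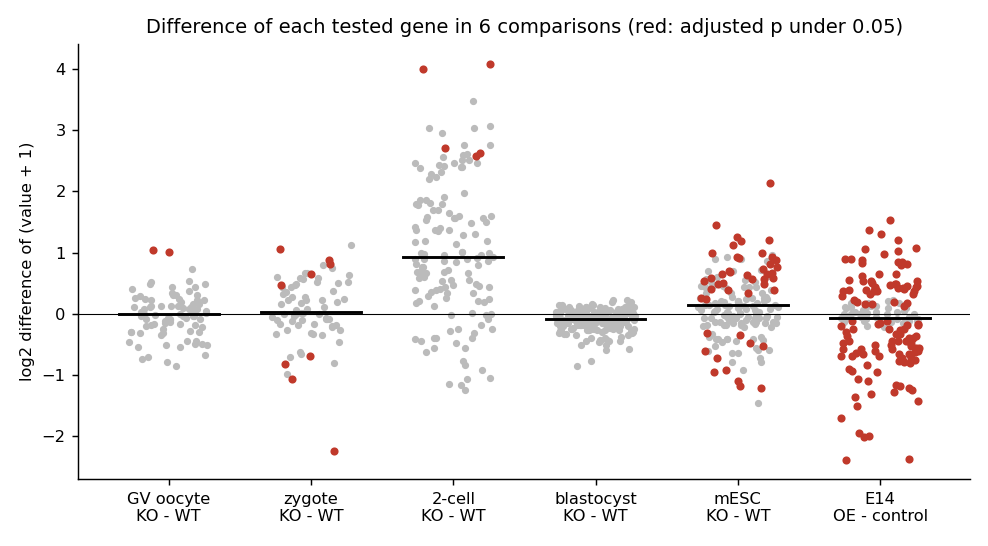
Difference on the log2(value + 1) scale for each blastocyst-gained gene tested, in 6 comparisons, with 1 point per gene and red for adjusted p under 0.05. KO blastocysts show 0 red points of 200, KO mESCs 46 of 169 and OE cells 123 of 168, in both directions.

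In mESCs, loss of maternal and zygotic ZFP708 went with changes in a minority of the genes, more often to higher levels. In KO, 35 of 169 tested genes were higher and 11 lower (limma, adjusted p under 0.05), against 8.26% and 5.6% of the 11963 genes tested. The median difference was 0.14 against −0.01 over all genes. The count rested on single libraries: it was 95 without WT library 2, 24 without WT library 1, 16 without WT library 3, 32, 7 and 12 without KO libraries 1, 2 and 3, and 1 where the spread was estimated over all 12 groups of the series. The libraries were unevenly alike. Mean chi-square per gene was 1.72 for KO 2 and 3, against 11 and 12.7 with KO 1. It was 3.28 for WT 1 and 3, against 34.8 and 35 with WT 2. The p-values in mESCs may therefore in part measure technical spread.

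Of 18 tested lysosomal, endocytic and vesicle genes 7 were higher and 0 lower: Calcoco2, Psap, Lrpap1, Snx1, Reep1, Plekhf1 and Ralb. Calcoco2 was at 120, 124 and 127 in WT and 252, 219 and 215 in KO (0.88 ± 0.07, adjusted p = 0.0023). Cndp2, a dipeptidase, was at 183, 204 and 186 in WT and 377, 397 and 377 in KO (1.00 ± 0.06, adjusted p = 0.0013). For both genes each KO library was above each WT library. Psap differed by less (0.26 ± 0.05), at 311, 335 and 319 against 368, 394 and 396.

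Rnd3, an atypical small GTPase of the actin cytoskeleton, was at 31.4, 41.0 and 32.3 in WT and 75.2, 77.7 and 76.4 in KO (1.12 ± 0.11). Pros1, the anticoagulant protein S, was at 26.7, 17.4 and 24.2 in WT and 54.9, 59.0 and 51.2 in KO (1.26 ± 0.16). Tfcp2l1 was at 844, 929 and 812 in WT and 1240, 1411 and 1366 in KO (0.64 ± 0.07, adjusted p = 0.0047). Of the 5 pluripotency markers among the 200, 3 were higher and 0 lower, beside 12 and 1 of the whole list of 31. Nanog was not called (0.26 ± 0.08, adjusted p = 0.078).

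Lower genes included Slc2a3, at 1602, 1932 and 1685 in WT and 1177, 1199 and 1223 in KO (−0.53 ± 0.07), and Ndrg1, a stress-responsive gene, at 24.4, 22.6 and 22.3 in WT and 12.4, 8.20 and 8.02 in KO (−1.22 ± 0.17). H2afy, which encodes the histone variant macroH2A1, differed by −0.47 ± 0.05, Glipr2 by −1.09 ± 0.19 and the Krüppel-like factor Klf6 by −0.72 ± 0.12. Slc2a3 and Ndrg1 are the members of the glycolysis and hypoxia list, of which 14 of 22 tested genes were lower and 1 higher. Of the 8 tested trophectoderm markers 0 were higher and 1 was lower.

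The summed levels of the fibroblast list and of the immune and blood list were higher in KO than in WT mESCs, but not every marker followed genotype. The feeder fibroblast list (14 genes) summed to 18.2 to 21.9 in WT and 32.4 to 39.8 in KO, with 4 of its 4 tested genes higher in KO. Of genes that fibroblasts express strongly, Col1a1 was at 0.42, 1.18 and 0.60 in WT and 2.82, 3.06 and 2.82 in KO. Col1a2 and Acta2 stayed under 1 in all 6 libraries. The immune and blood list (15 measured genes) summed to 77.6 to 105 in WT and 192 to 217 in KO, nearly all of it from Laptm5 (74.9 to 102 in WT, 188 to 213 in KO), while Ptprc was under 1. Ddx3y, a Y-linked gene, was near 0 in WT library 3 and KO library 1 and at 43.1 to 63.8 in the other 4. The part of these differences in the members' values was not tested.

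Under overexpression of FLAG-ZFP708 in E14 cells, most of the tested genes differed from the control, the cytoskeletal genes mainly to lower levels. Of the 168 genes tested 51 were higher and 72 lower (limma, adjusted p under 0.05), against 21.9% and 28.1% of the 12257 genes tested. The median difference was −0.07 against −0.02 over all genes. Among the 3 controls the differences were about the size of sampling noise (mean chi-square per gene between 1.08 and 1.13). OE libraries 1 and 2 were nearly as alike (1.26), while OE library 3 differed from both (7.31 and 7.53). The p-values in E14 cells may therefore largely measure technical spread. When such near-identical libraries were averaged and counted as 1, 16 of the genes were called, and 5 were called where the spread was estimated over all 12 groups.

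Of the 29 cytoskeletal genes 21 were lower and 3 higher, against 28.1% and 21.9% of all genes tested. Tpm1 was at 268, 277 and 273 in control and 77.4, 78.7 and 94.1 in OE cells (−1.70 ± 0.07, adjusted p = 1.4e-07). Cnn2, the actin-binding protein calponin 2, was at 106, 101 and 102 against 36.1, 34.6 and 35.6 (−1.51 ± 0.04, adjusted p = 1.6e-08), and Csrp1, a LIM protein of the actin cytoskeleton, at 76.5, 72.8 and 78.3 against 31.0, 31.4 and 32.2 (−1.24 ± 0.05). No OE library overlapped the control for these genes. Krt18 was at 33.4, 34.9 and 31.7 against 6.97, 5.83 and 10.2 (−2.01 ± 0.16), and Krt8 at 34.3, 35.2 and 36.6 against 6.27, 6.29 and 13.4 (−1.99 ± 0.25). Mylpf, a myosin light chain, was one of the 3 higher genes, at 13.4, 12.1 and 12.9 against 39.6, 37.8 and 39.7 (1.54 ± 0.06).

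Junction genes moved in both directions, 8 higher and 10 lower of 20 tested. Cldn7 was at 40.6, 38.1 and 38.4 in control and 8.60, 8.80 and 11.1 in OE cells (−1.94 ± 0.09). Gjb5 was at 8.04, 8.49 and 8.02 against 21.2, 24.9 and 22.6 (1.38 ± 0.08), and Adgre5, the adhesion receptor CD97, was higher by 1.03 ± 0.06. In the whole list of epithelial junction genes 3 of 32 tested were higher and 26 lower, and of the 8 among the 200, 2 were higher and 6 lower. Lrp2 was at 246, 243 and 241 against 40.9, 40.8 and 57.7 (−2.38 ± 0.12, adjusted p = 5.6e-06).

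All 5 pluripotency markers among the 200 were higher in OE cells, beside 21 higher and 7 lower of the 30 tested in the whole list. Tfcp2l1 was at 237, 236 and 236 in control and 402, 388 and 465 in OE cells (0.82 ± 0.06), and Nanog at 275, 275 and 278 against 386, 379 and 394 (0.48 ± 0.03). Klf5, a Krüppel-like factor of epiblast and trophectoderm, was at 76.7, 76.4 and 77.8 against 145, 143 and 146 (0.90 ± 0.03), and Tet2, a 5-methylcytosine dioxygenase, at 86.9, 82.9 and 84.6 against 213, 198 and 183 (1.21 ± 0.05). Klf6 was lower, at 143, 150 and 141 against 62.5, 62.2 and 64.4 (−1.18 ± 0.04). Of the 7 tested trophectoderm markers 0 were higher and 5 lower.

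The feeder fibroblast list summed to 123 to 131 in E14 controls and 31.95 to 35.1 in OE cells, with 0 of its 8 tested genes higher and 6 lower. Tagln, an actin-binding protein of smooth muscle and fibroblasts, was at 71.4, 74.5 and 76.3 in control and 3.43, 3.67 and 12.8 in OE cells, and Acta2 at 12.7 to 15.1 against 0.52 to 0.57. Among collagens, Col1a1 was at 2.95 to 4.13 in control and 0.93 to 1.40 in OE cells, and Col1a2 at 2.01 to 3.00 against 0.19 to 0.29. Col3a1 was under 1 in all 6 libraries. The part of such cells in the values of the cytoskeletal genes was not tested.

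In oocytes and zygotes, where the blastocyst-gained genes are low, few could be tested. In GV oocytes 85 genes had enough reads, and 2 were higher and 0 lower in KO, against 1.44% and 2.2% of 11775 genes. Csrp1 ran from 7.28 to 14.8 with a median of 8.86 in WT and from 16.5 to 28.5 with a median of 18.7 in KO (1.01 ± 0.17, adjusted p = 0.0046), and the groups did not overlap. Crip2, another LIM protein, had medians of 11.4 and 27.7 (1.05 ± 0.18, adjusted p = 0.0060), and its ranges of 8.01 to 20.2 and 17.7 to 30.7 did.

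In zygotes 74 genes were tested, with 5 higher and 4 lower, against 8.19% and 6.38% of 11168 genes. Cldn4 showed the largest difference. It ran from 16.5 to 39.3 with a median of 21.8 in WT and from 1.47 to 8.91 with a median of 5.16 in KO (−2.24 ± 0.28, adjusted p = 4.9e-06), so every KO zygote was below every WT zygote. Tpm1 (−0.69 ± 0.19), Gata6 (−1.07 ± 0.33) and Psap (−0.81 ± 0.25) were also lower. Csrp1 (1.06 ± 0.26), Gga2, a sorting adaptor of the Golgi (0.82 ± 0.21), Crip2 (0.87 ± 0.24), Actb (0.47 ± 0.15) and Tfcp2l1 (0.65 ± 0.22) were higher. Gga2, at 7.41 to 11.96 in WT and 13.1 to 23.8 in KO, was the other gene of the 9 whose groups did not overlap. These levels are a small share of the blastocyst level: the WT blastocyst mean was 574 for Cldn4 and 280 for Csrp1. The WT libraries of both comparisons were used to choose the genes.

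In 2-cell embryos the KO libraries held more of the blastocyst-gained RNA, unevenly. Of 138 genes tested 5 were higher and 0 lower, against 0.7% and 0.00795% of 12578 genes. The median difference was 0.93 against −0.06 over all genes, and 52 of the 138 genes had an unadjusted p under 0.05, as had 1878 of all 12578. The summed level was 1265 to 1797 in the 7 WT embryos, 1348 to 3859 in 6 KO embryos, 13202 in KO library 2 and 21510 in the library labelled KO 2-cell 7. Without this pair 4 of 130 tested genes were higher and 0 lower (0.615% of all genes were higher), and the median difference was 0.40.

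Marcks, a membrane-bound actin regulator, ran from 0 to 6.43 with a median of 0.32 in WT and from 3.15 to 362 with a median of 21.9 in KO (4.09 ± 0.84, adjusted p = 0.026). Without libraries 2 and 7 it differed by 2.96 ± 0.59 (adjusted p = 0.012). Dap ran from 0 to 7.67 in WT and from 4.58 to 302 in KO, and differed by 4.00 ± 0.82 with all libraries and 3.08 ± 0.67 without the pair. Bmyc, a relative of Myc, was at 1.28 or less in WT and at 1.72 or more in each KO embryo, and differed by 2.72 ± 0.56 and 2.10 ± 0.48. These 3 genes were called with and without the pair, but each lost the call at a pseudocount of 5 and without any one of several embryos, WT embryo 3 among them. Bmyc was the one of them whose groups did not overlap.

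Klf6, at 0 to 6.09 in WT and 6.87 or more in KO, and Fabp3 were called with all libraries (adjusted p = 0.042 and 0.047) and not without the pair (adjusted p = 0.11 and 0.093). Fabp3 was at 0 in 6 of the 7 WT embryos and at 0.86 to 37.0 in KO. Actb was called without the pair only (1.05 ± 0.24, adjusted p = 0.041), at 271 to 337 in WT and 360 to 1168 in the other 6 KO embryos. Krt8, at 0 to 12.5 in WT, was at 106 in the library labelled KO 2-cell 7 and at 12.2 or less in the other KO embryos.

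Ovarian somatic markers moved with these levels. A list of 14 cumulus and granulosa cell genes, none of which is among the 200, summed to 88.8 to 189 in WT and to 157 to 551 in 6 KO embryos, 1825 in library 2 and 6056 in the library labelled 7. Of its 8 tested genes 3 were higher in KO. Inha, the inhibin α subunit of granulosa cells, was at 0.96 or less in WT and at 749 and 3347 in those 2 libraries. In the other 6 KO embryos it was at 11.2 to 186, so leaving out the pair does not remove this marker. The fibroblast list summed to 2.89 to 8.95 in WT and 20.9 to 1107 in KO, with 1 of 5 tested genes higher. Embryo stage, attached cells and genotype cannot be told apart in these libraries, and the part of other cells in the members' values was not tested.

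**Figure D5:**
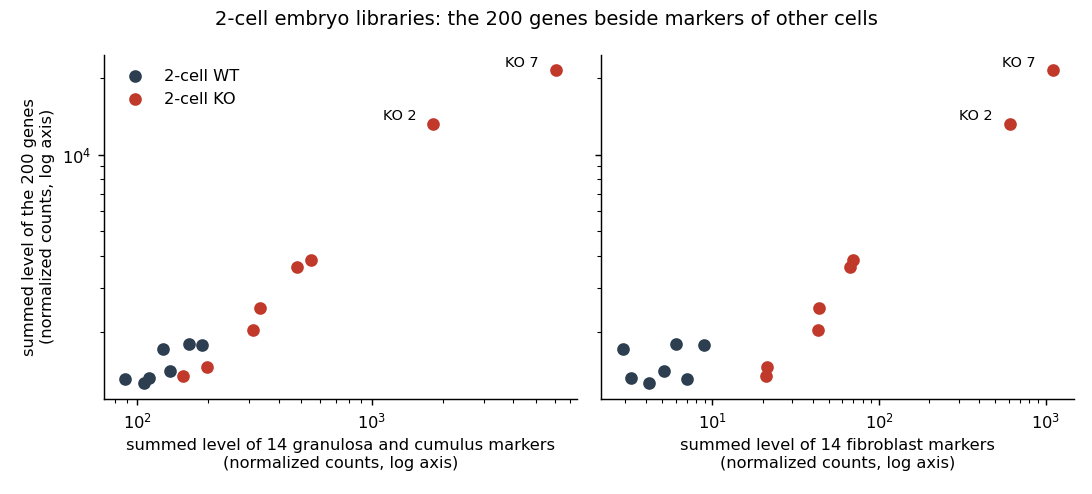
Summed level of the 200 genes in each 2-cell library (y axis, normalized counts, log) against the summed level of cumulus and granulosa markers and of fibroblast markers (x axes, normalized counts, log), with WT and KO embryos in different colours. WT embryos cluster at the lower left, and KO libraries 2 and 7 are at the upper right of both panels.

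In the genome (mm9) the 200 genes lay on every autosome and on X, with 18 each on chromosomes 9 and 11 and 4 on X. A total of 28 genes formed 14 pairs whose nearest ends were within 100000 bases. Krt8 (chr15:101827142-101834773, minus strand) and Krt18 (chr15:101858647-101862457, plus strand) were 23873 bases apart with no other gene of the table between them. Nanog and Slc2a3 on chromosome 6 were 13175 bases apart, S100a11 and S100a10 on chromosome 3 28792, and Crip2 and Crip1 on chromosome 12 6507. Neighbours did not always move together: in KO mESCs Slc2a3 was lower, while Nanog was not called. In 17 genes the span overlapped another gene, as for Fabp3, whose plus-strand span overlaps Zcchc17 on the minus strand. The kit stated for the single oocytes and embryos does not mark strand, so reads of such partners cannot be told apart there. Gstp2, Serpinb6c, Serpinb9b, Lgals4 and Csta1 have close relatives in the genome, and their counts are uncertain.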

How the data were processed

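The deposited values are normalized counts (signal values per gene), which the authors made from their reads: per the labels and methods, STAR 2.4.2a aligned reads to mm9 (NCBIM37), SAMtools sorted them, HTSeq counted them per Ensembl gene on the reverse strand, and DESeq2 size factors scaled all libraries together. Every value was a whole number of reads times a step of its library (100% within 0.01), so reads were recovered. Of 18504 rows, 108 repeats were dropped and 26 symbols that had been turned into dates were restored. All 18396 genes had an mm9 position.

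The 200 genes, their roles and the marker lists were chosen with earlier results of these data known. Genes were tested with limma 3.58.1 (R 4.3.3) on log2(value + 1), keeping genes that reached 1 in a number of libraries equal to the size of the smaller group, with trended, robust variance, two-sided tests and Benjamini-Hochberg adjustment over all genes tested at 0.05. The fold is understated for low genes. The test was checked on simulated data. Alternatives were edgeR 4.0.16 and DESeq2 1.42.0 on the recovered reads, pseudocounts, filters, other scalings, a replicate block, a shared spread over the 12 groups, libraries left out and near-identical libraries averaged. Leaving out KO 2-cell libraries 2 and 7 together was chosen after seeing the data. Named genes were the 20 top-ranked, the 3 on either side of rank 200, up to 4 of each list with the highest blastocyst mean, up to 5 called in each direction per comparison with the smallest p (3 where 0 were called), and the 5 highest and 5 lowest in mESCs, without predicted genes. Other genes named are examples chosen after their values were seen. Depth ranged from 2486334 to 19596785 reads in genes, and limits from counts of 0 cover counting error only. KO 2-cell libraries 7 and 8 share a number in their titles and were kept apart. Proteins were not used here, and some of the genes that the rule names are not reported here.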

Additional observations from a re-analysis of the deposited data

Results flagged for a closer look

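In single libraries, 5 of 38 checked groups of values held a sample far from the others by Dixon's criterion, which chance marks in about 1 group in 20. Csrp1 was at 14.8 in WT GV oocyte 5 and at 28.5 in KO GV oocyte 7, each the highest of its group. At the 2-cell stage Marcks was at 6.43 and Fabp3 at 1.29 in WT embryo 1, and Bmyc was at 47.5 in the library labelled KO 2-cell 7.

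Cryab was higher in KO mESCs (limma, adjusted p = 0.027) and had a lower mean in KO blastocysts, where it was not called (adjusted p = 1). It was at 0.74, 0.96 and 0.44 in WT and 1.84, 1.98 and 1.85 in KO mESCs, a difference of 0.77 on the log2(value + 1) scale, while every KO blastocyst library was below every WT one, in WT values that also chose the gene. The difference between the settings was not tested.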

How the results depend on the processing

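The number of blastocyst-gained genes called varied with the processing in 5 comparisons. With the spread shared over the 12 groups it was 1 for KO mESCs, 5 for OE cells, 0 for GV oocytes, 3 for zygotes and 73 for 2-cell embryos. In OE cells it was 16 with near-identical libraries averaged. In 2-cell embryos it was 0 at a pseudocount of 5, 3 without a filter, 0 with a filter at 10, 24 with edgeR, 43 with DESeq2 and 13 with the replicate block. When 1 library was left out, the count ran from 7 to 95 in mESCs (7 without KO 2, 95 without WT 2), 110 to 139 in OE cells, 2 to 3 in GV oocytes, 5 to 10 in zygotes (10 without KO 5), 0 to 18 in 2-cell embryos (0 without WT 3, 18 without KO 5), 0 in blastocysts, 192 to 200 for KO blastocysts against earlier KO stages and 180 to 188 against KO mESCs. Of 925 values of named genes under an alternative, 789 kept their direction and their side of the threshold, 136 lost the call and 0 reversed.

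Replicate numbers did not pair the samples: the correlation of same-numbered libraries was not above 0.1 for every pair in any comparison (−0.66 to 0.353 in blastocysts, −0.281 to 0.212 in mESCs). With the replicate block 35 genes were called in mESCs in place of 46, and 123 in OE cells as without it.

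The choice of genes shared 183 of 200 with a ranking by medians, 169 and 147 with minimums of 20 and 100, and 142 with the same rule on KO libraries. Genes under about 1 normalized count in single embryos rest on a few reads, so differences there are not resolved.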
